A study of Arabidopsis thaliana with 16 samples.

Results

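The step from 3 h to 12 h after a move from 18 °C to 28 °C was followed in wild-type (WT) Arabidopsis thaliana, ecotype Columbia-0. It was measured by 4 of the 16 RNA libraries of the series, 2 from WT at 3 h and 2 from WT at 12 h, chosen by the genotype, time and replicate number in their titles. Plants stood under 16 h of light and 8 h of dark at 18 °C until the stem of the primary inflorescence was 0.5 to 1.0 cm long, and were then placed at 28 °C. The labels give the tissue as inflorescences together with juvenile leaves, though the treatment labels speak of seedlings, and the polyadenylated RNA of this mixed tissue was sequenced. Both groups were therefore at 28 °C and lay 9 h apart, and the labels give no clock time of sampling. Time of day and time at 28 °C cannot be told apart in this design. The other libraries enter as WT at 0 h and 48 h and as zed1-D at 3 h and 12 h. zed1-D carries a dominant allele of ZED1, the gene of a pseudokinase that works with the immune receptor ZAR1, and was likewise in the Columbia-0 ecotype, raised at 18 °C and moved to 28 °C.

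Levels are given in CPM (reads of a gene per M counted reads of its library, with TMM scaling) as replicate 1 and replicate 2 (R1 and R2), and brackets give the log2 fold change of 12 h over 3 h with its standard error and FDR. FDR is the Benjamini-Hochberg adjusted p of the edgeR quasi-likelihood test over all genes tested, fitted with the replicate number as a block. A gene rose or fell at an adjusted p under 0.05. Every count of list members is to be read against all genes tested, of which 6.57% rose and 5.65% fell. Where the same model without the block did not call a called gene, its FDR follows as the unblocked FDR. Where omitting 1 library ended the call, brackets name that library and give the highest FDR. Where DESeq2, libraries thinned to the depth of the shallowest, or no expression filter ended it, that FDR is given too. The labels do not say what a replicate was. An FDR speaks only of the spread between libraries that is left after the block, which may be technical. The common coefficient of variation estimated by edgeR was 5.67% with the block and 22.6% without it.

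The plant circadian clock is a loop of transcription factors. Morning factors such as CCA1 and LHY repress evening genes through a promoter sequence called the evening element, and factors such as RVE8 activate many of the same genes. Salicylic acid and N-hydroxypipecolic acid are immune signals that raise defence genes such as PR1, while jasmonate acts against wounding and insects through the factor MYC2, which JAZ repressor proteins hold back. In Arabidopsis shoots, salicylic acid immunity is known to weaken at warm temperature, and several immune and metabolic genes are known to follow the time of day.

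Upstream sequences are shown for 4 genes of the step that carry letters of known binding motifs. Each is the run of 250 bases before the annotated gene start, taken from RefSeq's TAIR10.1 assembly and read 5′ to 3′ on the gene's strand. In the first sequence, from a gene that rose, capitals mark the evening element AAAATATCT or its reverse complement. GRP7, a clock-controlled RNA-binding protein, lies at chr2:9266558-9266807 on the minus strand.
GRP7: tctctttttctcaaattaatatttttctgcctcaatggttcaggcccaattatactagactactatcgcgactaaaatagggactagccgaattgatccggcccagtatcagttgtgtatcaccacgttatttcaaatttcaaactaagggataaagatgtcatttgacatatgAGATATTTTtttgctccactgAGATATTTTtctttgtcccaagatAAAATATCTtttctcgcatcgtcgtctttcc
In the next set, from genes that fell, capitals mark the G-box CACGTG, a motif of bHLH and bZIP factors. CCA1 lies at chr2:19245341-19245590 on the plus strand, and LHCB2.3, a light-harvesting protein of photosystem II, at chr3:10255656-10255905 on the plus strand.
CCA1: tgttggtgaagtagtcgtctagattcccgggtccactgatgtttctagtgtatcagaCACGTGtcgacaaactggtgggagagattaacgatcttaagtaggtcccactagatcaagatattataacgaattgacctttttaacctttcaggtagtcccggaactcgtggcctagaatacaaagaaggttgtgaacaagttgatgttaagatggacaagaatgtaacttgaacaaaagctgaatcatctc
LHCB2.3: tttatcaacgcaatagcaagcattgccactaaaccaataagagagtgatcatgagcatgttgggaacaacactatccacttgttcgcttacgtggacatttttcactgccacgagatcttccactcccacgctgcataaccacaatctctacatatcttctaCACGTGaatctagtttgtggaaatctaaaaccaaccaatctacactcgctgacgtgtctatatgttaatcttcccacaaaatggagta
In the last sequence, from WRKY33, a defence transcription factor that rose, capitals mark the W-box letters TTGACT and TTGACC, bound by WRKY factors, both on the other strand. It lies at chr2:16107985-16108234 on the plus strand.
WRKY33: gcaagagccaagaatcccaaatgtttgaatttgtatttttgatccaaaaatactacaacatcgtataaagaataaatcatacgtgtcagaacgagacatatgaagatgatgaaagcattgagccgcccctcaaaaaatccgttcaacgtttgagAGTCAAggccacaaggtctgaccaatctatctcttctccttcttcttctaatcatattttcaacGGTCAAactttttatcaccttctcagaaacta

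Of 19312 genes tested, 2360 changed between 3 h and 12 h, which is 12.2%. Of these 1269 rose, 6.57% of the genes tested, and 1091 fell, 5.65%. The changes were uneven in size. The median log2 fold change was 0.62 among genes that rose and -0.44 among genes that fell, and 398 genes (2.06%) rose by a log2 fold change of at least 1 against 98 (0.507%) that fell by as much. A log2 fold change of at least 2 was reached by 154 genes that rose and 14 that fell. Both replicate pairs moved in the direction of the call for 1266 of the 1269 genes that rose and 1083 of the 1091 that fell. Over all 19312 genes tested, both pairs moved with the fold change for 12291. The calls were made from these same pairs, so their agreement is no separate support. The 3 h and 12 h libraries did not overlap for 27.8% of all genes tested, and 8.77% both passed and did not overlap, made up of 974 genes that rose and 719 that fell. Lack of overlap was required of the genes named below for size or level, so for them it is no separate evidence. Without the replicate block 255 genes passed (1.32%), of which 206 rose (1.07%) and 49 fell (0.254%). With the block, 935 genes passed without 12 h R2 and 974 without 3 h R2, the deeper library of each group, against 1729 and 1745 without the others.

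**Figure D1:**
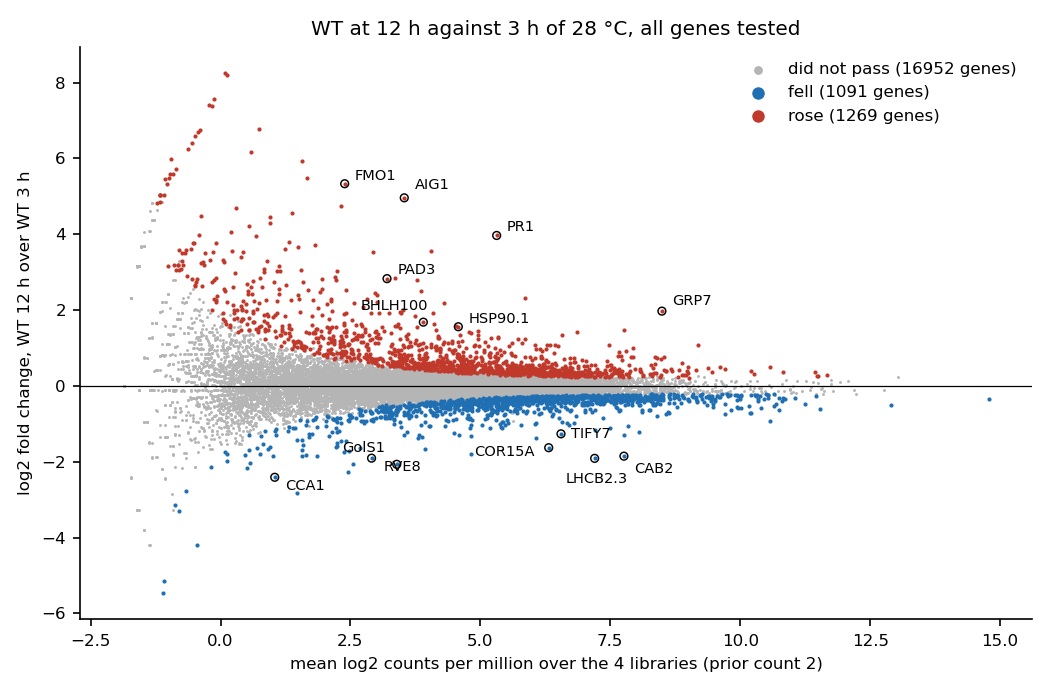
Log2 fold change of WT 12 h over WT 3 h against mean log2 CPM over the 4 libraries, for the 19312 genes tested (grey, did not pass; red, 1269 rose; blue, 1091 fell), with genes named in the text circled. Genes that rose reach larger fold changes than genes that fell; the values at the far left rest on few reads, and their size depends on the prior count.

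Depth was 4.74 M and 10.7 M counted reads for WT 3 h and 4.82 M and 11.4 M for WT 12 h, so replicate 2 was the deeper library in both groups. The first principal component of all 16 libraries, with 35.2% of the variance, placed the 3 h libraries at -47.79 and -48.34 and the 12 h libraries at -16.8 and -19.29. The second, with 21.9%, separated the replicate numbers. Summed marker levels are given in reads per M counted reads without TMM scaling. All 15 floral identity genes listed had reads, and their summed level was 214 and 303 per M at 3 h and 217 and 285 at 12 h. Of 7 root markers 3 had no read, and the summed level of the others was 84.6 and 69.8 per M at 3 h and 86.9 and 75.2 per M at 12 h. The light-harvesting and Rubisco list, which marks green tissue, summed to 60910 and 50430 per M at 3 h and 49480 and 40260 at 12 h, lower at 12 h in each replicate pair. In bulk tissue fewer green cells and less of these RNAs per cell cannot be told apart.

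Salicylic acid and N-hydroxypipecolic acid defence genes rose between 3 h and 12 h almost as a whole list. Of 25 genes, all tested, 24 rose and none fell (median log2 fold change 1.14, unblocked 15 rose and 0 fell; 0 fell at an unadjusted p under 0.05 and 0 by DESeq2), against 6.57% and 5.65% of all genes. The list was chosen with earlier results of these data known. PR1, the standard marker of salicylic acid signalling, rose from 7.35 and 13.1 CPM at 3 h to 133 and 195 CPM at 12 h (3.97 ± 0.11, FDR 9.48e-25). FMO1, the enzyme that makes N-hydroxypipecolic acid, rose from 0.459 and 0.839 CPM at 3 h to 27.6 and 30.8 CPM at 12 h (5.33 ± 0.24, FDR 1.09e-18), where the 3 h values are 2 and 9 reads. ALD1, which starts the pathway to the same compound, rose from 1.61 and 0.466 CPM at 3 h to 10.8 and 10.8 CPM at 12 h (3.73 ± 0.31, FDR 2.18e-11). Both 12 h libraries lay above both 3 h libraries for each of these genes. Without 3 h R1 the log2 fold change of ALD1 was 4.48 and without 3 h R2 it was 2.80.

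Genes of salicylic acid supply and signalling moved with them. UGT76B1, a glucosyltransferase that inactivates N-hydroxypipecolic acid and salicylic acid, rose from 4.82 and 6.90 CPM at 3 h to 38.0 and 33.9 CPM at 12 h (2.50 ± 0.15, FDR 4.53e-15). PBS3, which conjugates isochorismate with glutamate on the way to salicylic acid, rose from 7.12 and 10.07 CPM at 3 h to 31.3 and 36.7 CPM at 12 h (1.93 ± 0.15, FDR 8.18e-12). WRKY70, a transcription factor of this branch, rose from 72.6 and 71.7 CPM at 3 h to 201 and 184 CPM at 12 h (1.41 ± 0.09, FDR 2.5e-14). In all of them the 12 h libraries were the higher pair without overlap. ICS1 (listed as EDS16), the isochorismate synthase that feeds most pathogen-induced salicylic acid and named here after its values were seen, rose from 23.0 and 32.7 CPM at 3 h to 50.2 and 63.0 CPM at 12 h (1 ± 0.10, FDR 1.24e-09, unblocked FDR 0.0843). The member that did not pass was NPR1, a salicylic acid receptor, also named after its values were seen, at 40.4 and 34.9 CPM at 3 h and 44.6 and 39.1 CPM at 12 h (0.16 ± 0.11, FDR 0.405). Its 3 h and 12 h libraries overlapped.

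Other genes with large rises lie outside this list. AIG1, a GTP-binding protein gene first found as induced by a bacterial effector, rose from 1.61 and 2.42 CPM at 3 h to 45.7 and 78.6 CPM at 12 h (4.96 ± 0.23, FDR 3.69e-18). F6'H1 (AT3G13610), which makes the precursor of the coumarin scopoletin, rose from 1.15 and 0.652 CPM at 3 h to 23.5 and 20.9 CPM at 12 h (4.75 ± 0.26, FDR 3.73e-16). ABCG40, a transporter known to carry abscisic acid, rose from 4.82 and 4.57 CPM at 3 h to 59.3 and 53.2 CPM at 12 h (3.55 ± 0.16, FDR 1.09e-18). For these genes every 12 h library was above every 3 h library. PUB54, a U-box protein, rose from 0.459 and 2.52 CPM at 3 h to 11.6 and 17.5 CPM at 12 h (3.04 ± 0.24, FDR 1.25e-11), and without 3 h R2 its log2 fold change was 4.72. ACA13 (AT3G22910), an auto-inhibited calcium pump, rose from 2.53 and 2.14 CPM at 3 h to 16.6 and 31.1 CPM at 12 h (3.54 ± 0.26, FDR 2.34e-12), and without 3 h R2 its log2 fold change was 2.91. LTPG5 (AT3G22600), a lipid-transfer protein anchored to the membrane, rose from 1.61 and 1.40 CPM at 3 h to 16.2 and 8.61 CPM at 12 h (2.88 ± 0.25, FDR 9.69e-11). The locus AT2G18690, which RefSeq lists as uncharacterized, rose from 3.67 and 3.64 CPM at 3 h to 32.3 and 23.4 CPM at 12 h (2.84 ± 0.18, FDR 5.47e-14). The 12 h pair was again the higher one in all 4, and lack of overlap was a condition of naming genes by size.

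Genes of pattern-triggered immunity and of camalexin, the indole phytoalexin of Arabidopsis, rose too, 10 of 13 tested (median log2 fold change 1.17, unblocked 6 rose and 0 fell; 0 fell at an unadjusted p under 0.05 and 0 by DESeq2). PAD3, the cytochrome P450 of the last step to camalexin, rose from 3.44 and 3.36 CPM at 3 h to 22 and 25.1 CPM at 12 h (2.83 ± 0.18, FDR 5.47e-14). CYP71A13, an earlier enzyme of the same route, rose from 4.82 and 6.24 CPM at 3 h to 18.8 and 24.4 CPM at 12 h (1.96 ± 0.17, FDR 1.04e-10). Its relative CYP71A12 rose from 0.918 and 1.96 CPM at 3 h to 6.69 and 10.4 CPM at 12 h (2.48 ± 0.27, FDR 9.64e-09). The 12 h libraries were above the 3 h libraries in each. WRKY33, which activates PAD3 and CYP71A13 and whose upstream sequence is shown above, rose from 20.204 and 21.4 CPM at 3 h to 38.2 and 48.1 CPM at 12 h (1.08 ± 0.11, FDR 4.52e-09). WRKY53, a factor of defence and leaf ageing, rose from 6.20 and 5.78 CPM at 3 h to 19.0 and 17.7 CPM at 12 h (1.62 ± 0.17, FDR 6.37e-09). FLS2 (AT5G46330), the receptor for bacterial flagellin, rose from 21.8 and 11.9 CPM at 3 h to 42.9 and 29.7 CPM at 12 h (1.17 ± 0.14, FDR 1.14e-07, unblocked FDR 0.34), with no overlap between the groups.

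Intracellular immune receptors and the partners of ZED1 rose in part, 35.7% of those tested against 6.57% of all genes. Of 14 tested, 5 rose (median log2 fold change 0.33, unblocked 0 rose and 0 fell; 0 fell at an unadjusted p under 0.05 and 0 by DESeq2). ADR1-L1, a helper receptor, rose from 57.9 and 49.2 CPM at 3 h to 84.1 and 73.0 CPM at 12 h (0.56 ± 0.09, FDR 1.33e-05, unblocked FDR 0.241). Its relative ADR1-L2 rose from 30.3 and 29.5 CPM at 3 h to 47.0 and 44.0 CPM at 12 h (0.59 ± 0.11, FDR 0.000175, unblocked FDR 0.142). In both genes the 12 h libraries were higher without overlap. ZAR1 rose from 111 and 128 CPM at 3 h to 154 and 174 CPM at 12 h (0.46 ± 0.10, FDR 0.000986, unblocked FDR 0.484). RPP4, a receptor gene in a cluster of similar copies whose shared reads make its counts uncertain, rose from 76.5 and 50.4 CPM at 3 h to 108 and 79.0 CPM at 12 h (0.58 ± 0.10, FDR 9.24e-05, unblocked FDR 0.665). ZED1 (AT3G57750) itself had few reads, at 4.13 and 11.7 CPM at 3 h and 6.04 and 10.05 CPM at 12 h (-0.06 ± 0.20, FDR 0.904), and its groups overlapped.

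**Figure D2:**
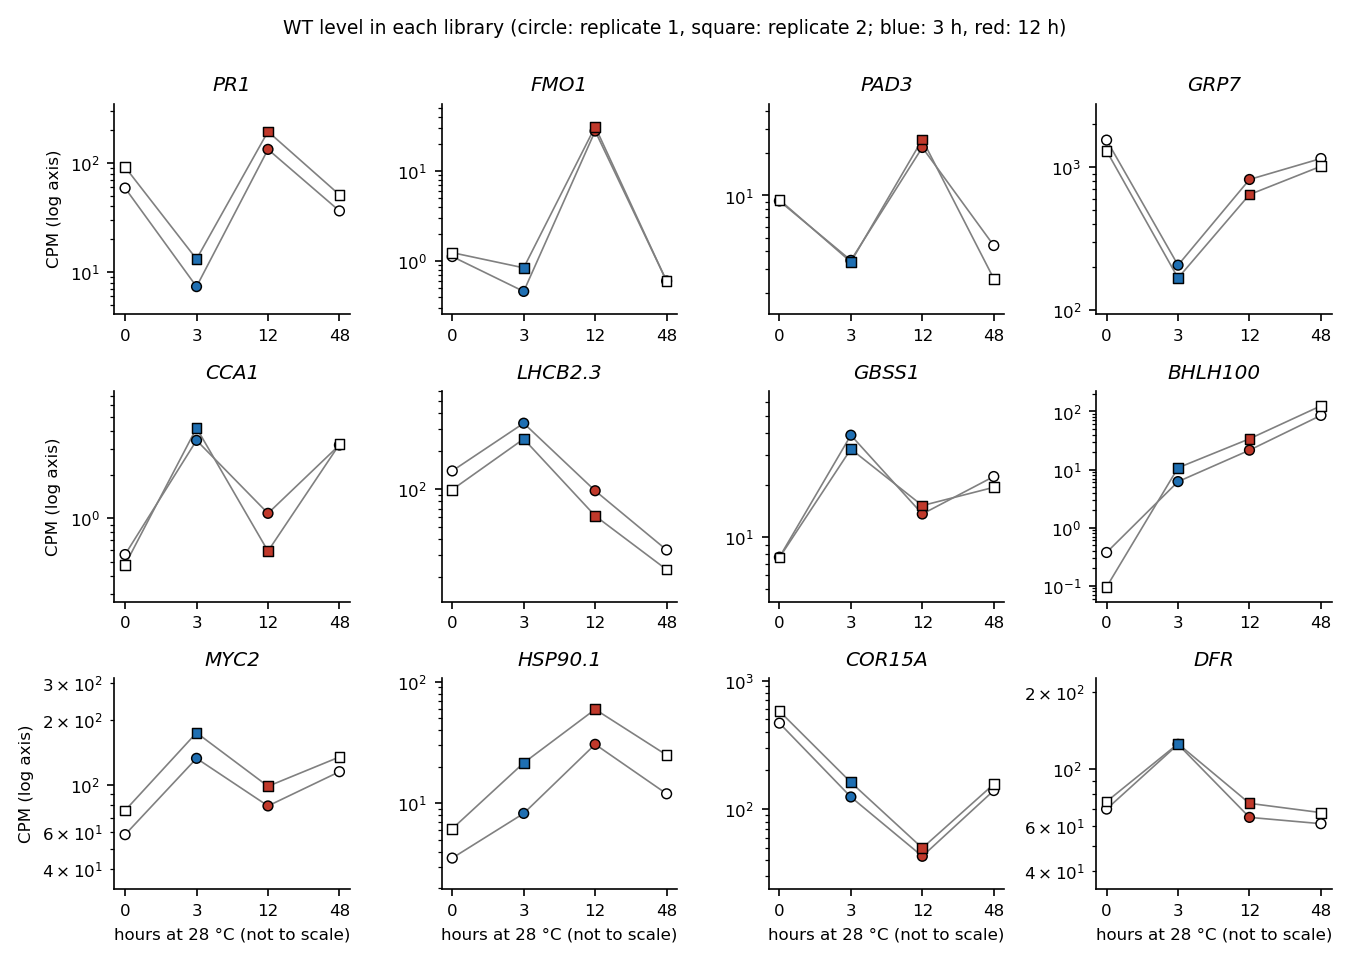
CPM on a log axis in each WT library at 0, 3, 12 and 48 h for 12 genes named in the text; circles are replicate 1, squares replicate 2, blue marks 3 h and red 12 h, and lines join libraries of one replicate number. PR1, FMO1, PAD3, GRP7, BHLH100 and HSP90.1 are higher at 12 h than at 3 h in both replicates, and CCA1, LHCB2.3, GBSS1, MYC2, COR15A and DFR are lower.

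Morning clock genes fell and part of the day and evening genes rose. Of the morning genes tested 50% fell, against 5.65% of all genes. Of the day and evening genes 46.2% rose and 15.4% fell, against 6.57% and 5.65%. Of 16 morning genes 14 were tested, 7 fell and none rose (median log2 fold change -0.75, unblocked 0 rose and 3 fell; 0 rose and 4 fell without 12 h R2; 0 rose at an unadjusted p under 0.05 and 0 by DESeq2). RVE8, an activator of evening genes, fell from 14.2 and 14.4 CPM at 3 h to 3.45 and 3.97 CPM at 12 h (-1.91 ± 0.23, FDR 9.12e-08). CCA1 fell from 3.44 and 4.19 CPM at 3 h to 1.08 and 0.591 CPM at 12 h (-2.41 ± 0.42, FDR 7.28e-05; lost without 12 h R2, FDR up to 0.0663), from 15 and 45 reads at 3 h to 5 and 7 at 12 h. LHY, its close partner, fell from 4.82 and 4.94 CPM at 3 h to 1.29 and 1.6 CPM at 12 h (-1.68 ± 0.33, FDR 0.000321, unblocked FDR 0.0583, thinned FDR 0.0591). The 3 h libraries were the higher pair without overlap in all 3. RVE1, which links the clock to auxin, fell from 7.12 and 8.20 CPM at 3 h to 3.45 and 2.62 CPM at 12 h (-1.45 ± 0.24, FDR 3.58e-05). RVE4 (listed as LCL1), a relative of RVE8, fell from 54.9 and 57.1 CPM at 3 h to 39.0 and 42.5 CPM at 12 h (-0.45 ± 0.10, FDR 0.00172, unblocked FDR 0.254; lost without 12 h R2, FDR up to 0.0694). LNK2 (AT3G54500), a coactivator of RVE8, fell from 25.7 and 21.5 CPM at 3 h to 12.1 and 10.5 CPM at 12 h (-1.06 ± 0.17, FDR 1.87e-05, unblocked FDR 0.124). LNK3 (AT3G12320), with few reads, fell from 3.21 and 2.80 CPM at 3 h to 0.647 and 1.6 CPM at 12 h (-1.14 ± 0.36, FDR 0.0334, unblocked FDR 0.136; lost without any 1 library, FDR up to 0.182, DESeq2 FDR 0.131, thinned FDR 0.0558), and its log2 fold change was -2.12 without 12 h R2. All 4 were higher in both 3 h libraries.

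Of 13 day and evening clock genes, all tested, 6 rose and 2 fell (median log2 fold change 0.19, unblocked 0 rose and 0 fell; 5 rose and 0 fell without 3 h R1 or 12 h R1, 3 rose and 0 fell without 3 h R2, 4 rose and 0 fell without 12 h R2, by DESeq2 and thinned 5 rose and 0 fell). JMJD5, a histone demethylase gene that peaks at dusk, rose from 96.0 and 42.2 CPM at 3 h to 173 and 98.8 CPM at 12 h (1.04 ± 0.10, FDR 7.61e-10, unblocked FDR 0.863). ELF4, a member of the evening complex, rose from 9.18 and 17.802 CPM at 3 h to 23.3 and 31.3 CPM at 12 h (0.95 ± 0.13, FDR 1.69e-06, unblocked FDR 0.471). FKF1, a blue light receptor of photoperiodic flowering, rose from 12.9 and 15.8 CPM at 3 h to 20.06 and 25.4 CPM at 12 h (0.66 ± 0.15, FDR 0.00193, unblocked FDR 0.194; lost without 12 h R2, FDR up to 0.325). These 3 genes did not overlap between the groups. GI, which binds FKF1, rose from 46.1 and 28.6 CPM at 3 h to 64.3 and 39.6 CPM at 12 h (0.47 ± 0.11, FDR 0.00194, unblocked FDR 1; lost without 3 h R2, FDR up to 0.0804). PRR5, a repressor of morning genes, rose from 11.7 and 11.6 CPM at 3 h to 16.6 and 17.0 CPM at 12 h (0.54 ± 0.15, FDR 0.0138, unblocked FDR 0.235; lost without 3 h R1, 3 h R2 or 12 h R2, FDR up to 0.31, DESeq2 FDR 0.0879, thinned FDR 0.0668). The gene listed as TCP11, a TCP transcription factor, rose from 40.4 and 26.7 CPM at 3 h to 54.3 and 34.0 CPM at 12 h (0.39 ± 0.11, FDR 0.0148, unblocked FDR 1; lost without 3 h R2 or 12 h R1, FDR up to 0.177). Only PRR5 of these was free of overlap. The remaining partners of ELF4 in the evening complex fell slightly. ELF3 fell from 109 and 95.7 CPM at 3 h to 77.0 and 84.7 CPM at 12 h (-0.31 ± 0.10, FDR 0.0242, unblocked FDR 0.532; lost without any 1 library, FDR up to 0.273, DESeq2 FDR 0.0616, thinned FDR 0.124). LUX (listed as PCL1) fell from 65.7 and 128 CPM at 3 h to 57.8 and 101 CPM at 12 h (-0.28 ± 0.10, FDR 0.0468, unblocked FDR 1; lost without any 1 library, FDR up to 0.661, DESeq2 FDR 0.162, thinned FDR 0.195, unfiltered FDR 0.0578). TOC1, the repressor of CCA1 and LHY, did not pass, at 146 and 157 CPM at 3 h and 152 and 173 CPM at 12 h (0.10 ± 0.08, FDR 0.471), with overlapping groups.

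Of 12 photoperiod and clock output genes tested, 3 rose and 3 fell (median log2 fold change 0.13, unblocked 2 rose and 0 fell; 3 rose and 1 fell without 3 h R1, 2 rose and 0 fell without 3 h R2, 3 rose and 0 fell without 12 h R2, by DESeq2 3 rose and 0 fell, thinned 3 rose and 1 fell). GRP7 had the largest change among them, from 206 and 167 CPM at 3 h to 821 and 643 CPM at 12 h (1.97 ± 0.08, FDR 1.62e-19). Its relative GRP8 (AT4G39260) rose from 19.7 and 27.9 CPM at 3 h to 54.8 and 62.7 CPM at 12 h (1.27 ± 0.13, FDR 1.35e-09). CDF1 (AT5G62430), a repressor of CONSTANS, rose from 3.21 and 3.91 CPM at 3 h to 7.55 and 8.11 CPM at 12 h (1.1 ± 0.24, FDR 0.0014, unblocked FDR 0.128; lost without 3 h R2, FDR up to 0.093). The 12 h libraries were above the 3 h libraries in each. CDF2, from the same family, fell from 8.95 and 8.76 CPM at 3 h to 6.47 and 5.24 CPM at 12 h (-0.65 ± 0.21, FDR 0.0406, unblocked FDR 0.517; lost without 3 h R1, 3 h R2 or 12 h R2, FDR up to 0.605, DESeq2 FDR 0.231, thinned FDR 0.171). COL1, a CONSTANS-like gene, fell from 3.67 and 3.17 CPM at 3 h to 2.37 and 1.18 CPM at 12 h (-1.11 ± 0.34, FDR 0.0266, unblocked FDR 0.47; lost without 3 h R2 or 12 h R2, FDR up to 0.51, DESeq2 FDR 0.171, thinned FDR 0.19). COL2, of the same family, fell from 9.41 and 6.90 CPM at 3 h to 4.53 and 4.14 CPM at 12 h (-0.85 ± 0.23, FDR 0.00886, unblocked FDR 0.184; lost without any 1 library, FDR up to 0.141, DESeq2 FDR 0.061). COR27, a clock regulator induced by cold, rose from 13.1 and 22.4 CPM at 3 h to 24.4 and 48.8 CPM at 12 h (1.06 ± 0.13, FDR 1.33e-07, unblocked FDR 0.636), with no overlap.

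Promoter windows of the genes that changed were searched for the letters of known motifs. Windows ran from 250 bases before to 50 after the annotated start, both strands were searched, and 18941 tested genes had one. The evening element AAAATATCT was in 6.74% of 1262 windows of genes that rose, 2.80% of 1035 of genes that fell and 3.08% of all. Its letters were in 3 of 6 day and evening clock genes that rose, 1 of 2 that fell and 2 of 5 that did not pass. They were in 2 of 3 clock outputs that rose and 1 of 3 that fell. They were in 4 of 10 starch genes that rose and 0 of 5 that fell. Of the genes that rose in other lists, 1 of 24 salicylic acid and N-hydroxypipecolic acid, 0 of 10 pattern-triggered and camalexin, and 0 of 12 iron genes held them. So did 2 of 3 cold response, 2 of 5 immune receptor, 1 of 3 abscisic acid, 1 of 4 gibberellin and 1 of 1 ribosome biogenesis genes that rose. Genes that rose in the remaining lists, among them 8 heat shock genes and 5 chaperones of the endoplasmic reticulum, did not hold them. Among the sequences shown, GRP7 held 3 copies, beginning 76, 55 and 31 bases before the start. The related CCA1 binding site AAAAATCT, which cannot overlap the evening element by its full length, was in 6.97%, 7.54% and 8.10%.

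The G-box CACGTG, which reads the same on both strands, went the other way, with 6.5% of windows of genes that rose, 14.9% of those that fell and 8.83% of all. It was in 21.2% of 85 windows of genes that fell by a log2 fold change of at least 1. Of the morning clock genes, 6 of 7 that fell and 4 of 7 that did not pass held it. CCA1 held it at 193 bases before the start and LHCB2.3 at 88. Of the light-harvesting and Rubisco genes, 3 of 13 that fell and 1 of 3 that did not pass held it. Of the chlorophyll synthesis genes, 2 of 12 that fell and 0 of 3 that did not pass held it. It was also in genes that rose, with 5 of 10 starch genes (against 1 of 5 that fell) and 5 of 12 iron genes. Of heat shock genes, 3 of 8 that rose and 1 of 11 that did not pass held it. Of endoplasmic reticulum chaperones, 1 of 5 that rose and 6 of 8 that did not pass held it. So did 2 of 24 salicylic acid and N-hydroxypipecolic acid, 1 of 3 clock output and 1 of 2 indole glucosinolate genes that rose. Genes that rose in the remaining lists did not hold it. The W-box letters, searched after the values were seen, were commoner among genes that rose. TTGACT was in 31.2% of their windows, 16.1% of those of genes that fell and 21.8% of all, and TTGACC in 17.2%, 12.5% and 14.2%. Of the 24 salicylic acid and N-hydroxypipecolic acid genes that rose, 8 held TTGACT and 0 held TTGACC. In the pattern-triggered and camalexin list, which includes WRKY33, TTGACT was in 2 of 10 genes that rose and 2 of 3 that did not pass. There TTGACC was in 3 of 10 and 2 of 3. These are matches of letters, and binding was not measured.

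**Figure D3:**
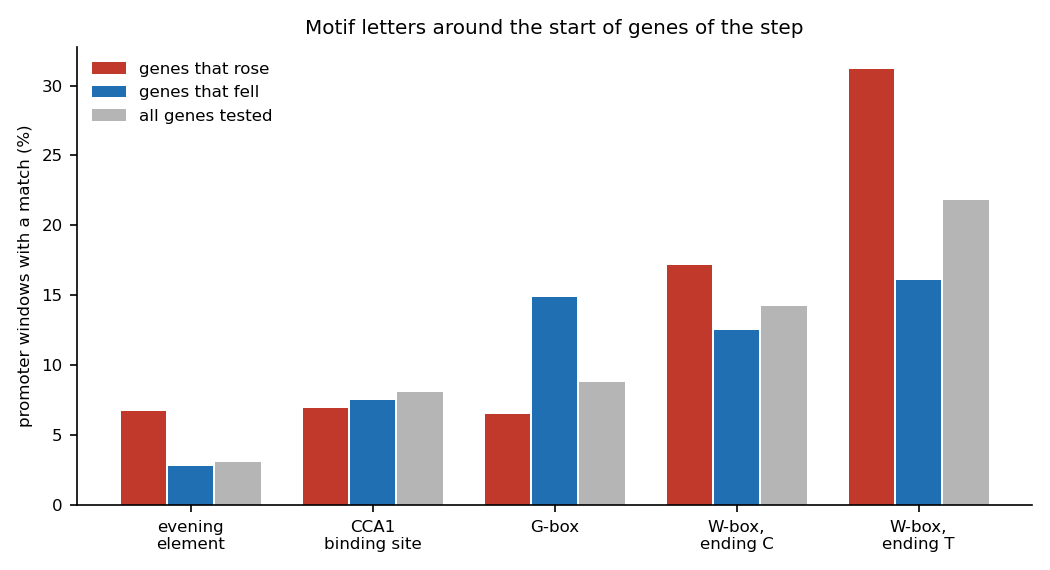
Share of promoter windows with at least 1 match on either strand, for the evening element, the CCA1 binding site, the G-box and both W-box spellings, among genes that rose (red, 1262 windows), fell (blue, 1035) and all tested (grey, 18941). The evening element and W-box bars are highest for genes that rose, at 6.74%, 17.2% and 31.2%, and the G-box bar for genes that fell, at 14.9%.

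Light-harvesting genes and genes of chlorophyll synthesis fell together, 81.2% and 80% of their lists against 5.65% of all genes. Of 16 light-harvesting and Rubisco genes 13 fell and none rose (median log2 fold change -0.47, unblocked 0 rose and 1 fell; 0 rose at an unadjusted p under 0.05 and 0 by DESeq2). LHCB2.3 fell from 334 and 251 CPM at 3 h to 97.3 and 61.5 CPM at 12 h (-1.91 ± 0.08, FDR 9.56e-19). LHCB3, an antenna protein of photosystem II, fell from 2574 and 1823 CPM at 3 h to 1309.9 and 978 CPM at 12 h (-0.94 ± 0.07, FDR 4.24e-12, unblocked FDR 0.233). LHCA4, an antenna protein of photosystem I, fell from 2462 and 1965 CPM at 3 h to 1602 and 1236 CPM at 12 h (-0.64 ± 0.07, FDR 8.96e-09, unblocked FDR 0.402). In all of them the 3 h libraries were higher without overlap. CAB2, a copy of LHCB1 that had the largest fall among antenna genes apart from LHCB2.3, fell from 596 and 297 CPM at 3 h to 170.2 and 79.6 CPM at 12 h (-1.85 ± 0.09, FDR 1.02e-17, unblocked FDR 0.294). LHCB2.1 fell from 623 and 196 CPM at 3 h to 240.0 and 84.3 CPM at 12 h (-1.30 ± 0.09, FDR 1.13e-12, unblocked FDR 0.963), with overlap, replicate 1 being above replicate 2 at both times. CAB2 and LHCB2.1 have near-identical copies, so their counts are uncertain.

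Apart from LHCA4, given above, the genes named as falling with the most reads fell by small amounts. RBCS1A, the small subunit of the carbon-fixing enzyme Rubisco, fell from 32868 and 31767 CPM at 3 h to 26720.5 and 24246 CPM at 12 h (-0.34 ± 0.08, FDR 0.00305, unblocked FDR 0.841; lost without 3 h R2, 12 h R1 or 12 h R2, FDR up to 0.134), the most reads of any gene that fell. PSBP-1, a subunit of photosystem II, fell from 3301 and 3005 CPM at 3 h to 2811 and 2482 CPM at 12 h (-0.25 ± 0.07, FDR 0.0188, unblocked FDR 0.932; lost without any 1 library, FDR up to 0.271). Another subunit, PSBW, fell from 1852 and 2101 CPM at 3 h to 1528 and 1614 CPM at 12 h (-0.33 ± 0.08, FDR 0.00218, unblocked FDR 0.69; lost without 3 h R2 or 12 h R2, FDR up to 0.119). GAPA, the chloroplast glyceraldehyde-3-phosphate dehydrogenase, fell from 2704 and 2146 CPM at 3 h to 2131 and 1767 CPM at 12 h (-0.31 ± 0.08, FDR 0.00439, unblocked FDR 0.949; lost without 3 h R1, 12 h R1 or 12 h R2, FDR up to 0.119). In each the lower 3 h library was above the higher 12 h library, which was a condition of naming genes by level.

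Of 15 chlorophyll synthesis genes and their GLK regulators 12 fell (median log2 fold change -0.42, unblocked 0 rose and 1 fell; 0 rose at an unadjusted p under 0.05 and 0 by DESeq2). HEMA1, which starts tetrapyrrole synthesis, fell from 184 and 275 CPM at 3 h to 81.5 and 123 CPM at 12 h (-1.17 ± 0.09, FDR 3.87e-12, unblocked FDR 0.17). CAO (listed as CH1), which makes chlorophyll b, fell from 172 and 134 CPM at 3 h to 78.7 and 69.3 CPM at 12 h (-1.03 ± 0.08, FDR 1.86e-11). GUN5, a subunit of magnesium chelatase, fell from 1829 and 1287 CPM at 3 h to 1009.5 and 868 CPM at 12 h (-0.71 ± 0.08, FDR 9.15e-09, unblocked FDR 0.409). Its activator GUN4 fell from 225 and 148 CPM at 3 h to 143 and 89.5 CPM at 12 h (-0.69 ± 0.08, FDR 3.67e-08, unblocked FDR 0.871). PORB, the light-dependent reductase of protochlorophyllide, fell from 1339 and 1171 CPM at 3 h to 881 and 785 CPM at 12 h (-0.59 ± 0.07, FDR 4.39e-08, unblocked FDR 0.197). The 3 h libraries were the higher pair without overlap in all 5. Among B-box and light signalling genes 6 of 17 tested fell and none rose (median log2 fold change -0.30, unblocked 0 rose and 1 fell; 0 rose and 3 fell without 3 h R2, 0 rose and 2 fell without 12 h R2, thinned 0 rose and 3 fell; 0 rose at an unadjusted p under 0.05 and 0 by DESeq2). STH, a B-box protein of light signalling, fell from 26.9 and 20.4 CPM at 3 h to 11 and 7.85 CPM at 12 h (-1.34 ± 0.16, FDR 5.2e-08). ELIP1, an early light-induced protein of photoprotection, fell from 13.3 and 6.52 CPM at 3 h to 3.02 and 2.36 CPM at 12 h (-1.74 ± 0.25, FDR 2.89e-06, unblocked FDR 0.102). SPA3, a repressor of light signalling that works with COP1, fell from 65.2 and 67.7 CPM at 3 h to 47.0 and 48.6 CPM at 12 h (-0.47 ± 0.10, FDR 0.00104, unblocked FDR 0.221; lost without 3 h R2 or 12 h R2, FDR up to 0.057). Both 3 h values were above both 12 h values for these 3 genes.

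Starch genes moved both ways, with 50% rising and 25% falling, against 6.57% and 5.65% of all genes. Of 20, 10 rose and 5 fell (median log2 fold change 0.17, unblocked 2 rose and 1 fell; 8 rose and 3 fell without 3 h R1, 4 rose and 1 fell without 3 h R2, 9 rose and 2 fell without 12 h R1, 4 rose and 3 fell without 12 h R2). Members of breakdown were on both sides, and 4 of the 5 that fell are beta-amylases. AMY3, a chloroplast alpha-amylase, rose from 161 and 164 CPM at 3 h to 264 and 298 CPM at 12 h (0.80 ± 0.07, FDR 4.41e-10). SEX1, the glucan water dikinase that opens the granule surface, rose from 215 and 163 CPM at 3 h to 321 and 306 CPM at 12 h (0.76 ± 0.09, FDR 5.32e-08, unblocked FDR 0.156). PHS2, the cytosolic glucan phosphorylase, rose from 278 and 272 CPM at 3 h to 386 and 430.2 CPM at 12 h (0.57 ± 0.07, FDR 4.89e-07). DPE2, which handles maltose in the cytosol, rose from 146 and 159 CPM at 3 h to 204 and 240.2 CPM at 12 h (0.54 ± 0.08, FDR 2.52e-06, unblocked FDR 0.167). The 12 h libraries were above the 3 h libraries in all 4. GBSS1, the granule-bound synthase of amylose, went the other way, from 38.8 and 32.2 CPM at 3 h to 13.6 and 15.2 CPM at 12 h (-1.24 ± 0.13, FDR 6.77e-09). BAM1 (AT3G23920), a beta-amylase, also fell, from 76.9 and 78.3 CPM at 3 h to 57.2 and 61.1 CPM at 12 h (-0.38 ± 0.09, FDR 0.00213, unblocked FDR 0.169; lost without 3 h R2 or 12 h R1, FDR up to 0.119). Of 15 sugar starvation and dark-induced genes 2 rose and 1 fell (median log2 fold change 0.00, unblocked 0 rose and 0 fell, thinned 1 rose and 1 fell). Those were 13.3% and 6.67% of that list, against 6.57% and 5.65% of all genes, and the calls did not all hold on leaving out 1 library.

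Of 18 flavonoid and anthocyanin genes 9 fell and none rose (median log2 fold change -0.45, unblocked 0 rose and 2 fell; 0 rose at an unadjusted p under 0.05 and 0 by DESeq2). PAP1 (AT1G56650), the MYB factor that switches on anthocyanin synthesis, fell from 17.2 and 39.9 CPM at 3 h to 6.69 and 11.7 CPM at 12 h (-1.66 ± 0.17, FDR 2.86e-09, unblocked FDR 0.409). DFR, an enzyme of the late pathway, fell from 125 and 126 CPM at 3 h to 64.9 and 73.6 CPM at 12 h (-0.84 ± 0.09, FDR 6.59e-09). LDOX, the next enzyme, fell from 95.1 and 129 CPM at 3 h to 59.3 and 75.4 CPM at 12 h (-0.74 ± 0.08, FDR 3.65e-08, unblocked FDR 0.406). GSTF12, which carries the pigments to the vacuole, fell from 45.2 and 49.6 CPM at 3 h to 29.8 and 29.1 CPM at 12 h (-0.70 ± 0.11, FDR 1.02e-05). These genes were higher in both 3 h libraries. TT4, the chalcone synthase at the start of the pathway, fell from 784 and 396 CPM at 3 h to 545 and 305 CPM at 12 h (-0.45 ± 0.08, FDR 8.37e-05, unblocked FDR 1), lower at 12 h within each replicate but with overlap between the groups.

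Most iron deficiency genes rose, and of the listed ferritins, which store iron, 2 fell and another did not pass. In this list 75% rose and 12.5% fell, against 6.57% and 5.65% of all genes. Of 16 listed, 12 rose and 2 fell (median log2 fold change 0.70, unblocked 4 rose and 0 fell; 8 rose and 1 fell without 3 h R2). BHLH100, a transcription factor of the iron deficiency response, rose from 6.20 and 10.7 CPM at 3 h to 21.6 and 33.9 CPM at 12 h (1.68 ± 0.16, FDR 4.78e-10, unblocked FDR 0.0776). Its relative bHLH38 rose from 0.459 and 0.652 CPM at 3 h to 4.74 and 8.53 CPM at 12 h (3.60 ± 0.35, FDR 1.4e-09), from 2 and 7 reads at 3 h. FRO3, a ferric reductase of mitochondria, rose from 32.1 and 19.7 CPM at 3 h to 61.7 and 43.0 CPM at 12 h (1.05 ± 0.11, FDR 8.96e-09, unblocked FDR 0.486). In these the 12 h libraries were higher without overlap, by more for the factors than for the reductase. The locus AT1G47400, which RefSeq leaves uncharacterized, rose from 1.15 and 1.77 CPM at 3 h to 4.74 and 8.95 CPM at 12 h (2.26 ± 0.29, FDR 3.28e-07). Another such locus, AT2G30766, rose from 30.3 and 28.9 CPM at 3 h to 62.8 and 48.7 CPM at 12 h (0.88 ± 0.11, FDR 3.47e-07). FER4 and FER1, the ferritins that fell, are named after their values were seen. FER4 fell from 42.0 and 50.2 CPM at 3 h to 25.2 and 25.8 CPM at 12 h (-0.88 ± 0.12, FDR 5.3e-07, unblocked FDR 0.123). FER1 fell from 20.204 and 25.2 CPM at 3 h to 12.7 and 15.9 CPM at 12 h (-0.66 ± 0.14, FDR 0.000675, unblocked FDR 0.118; lost without 3 h R2, FDR up to 0.191).

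**Figure D4:**
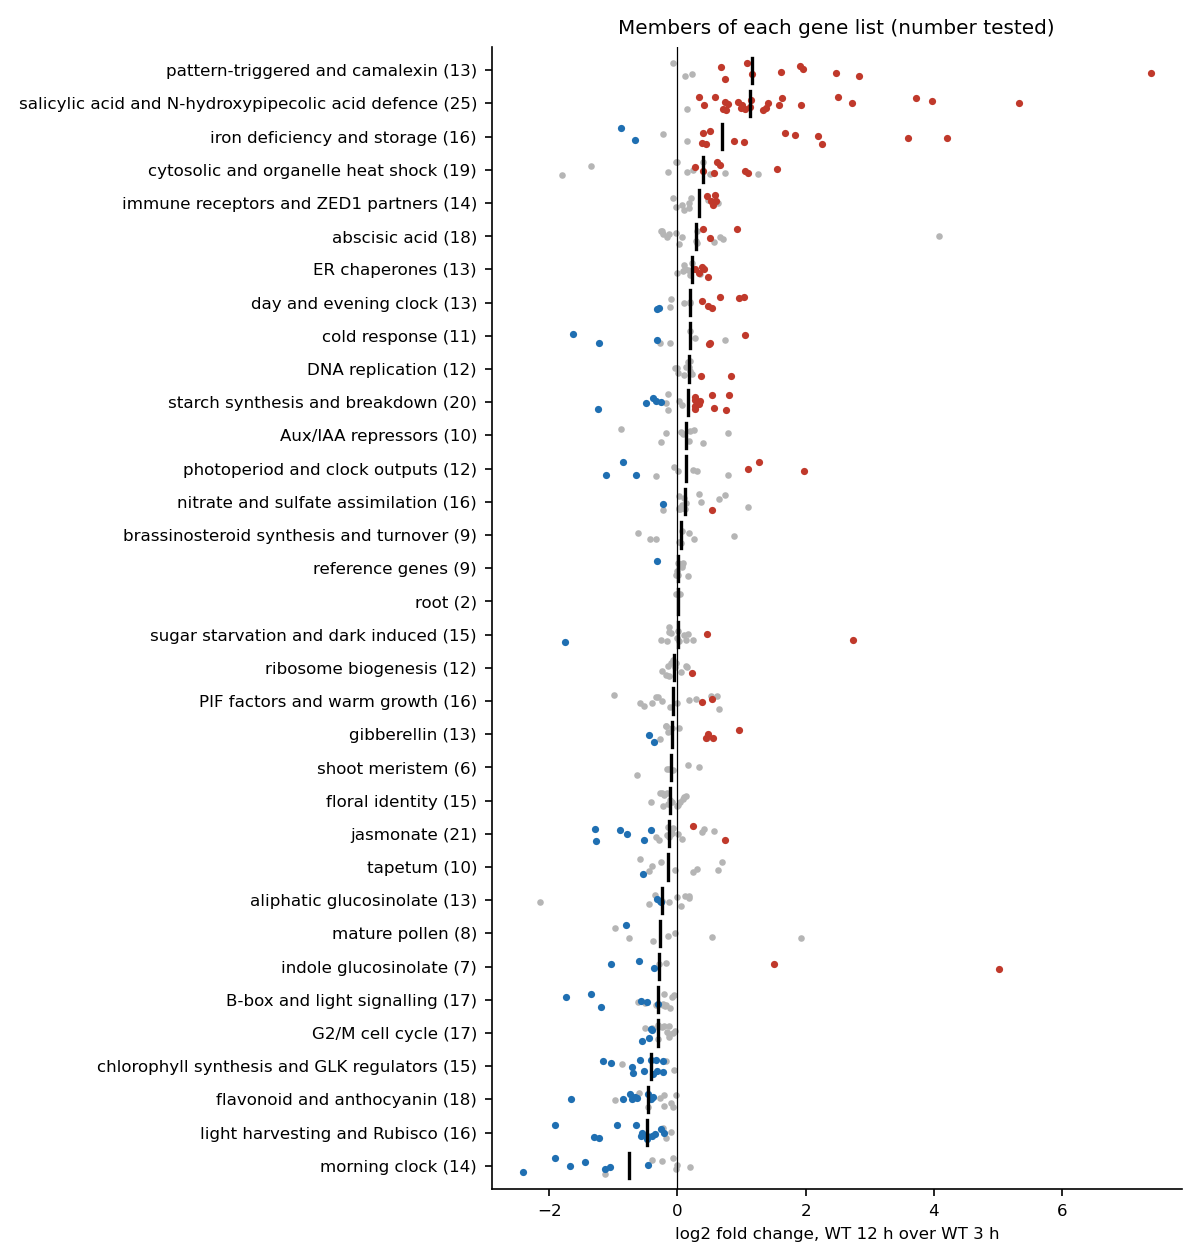
Log2 fold change of WT 12 h over WT 3 h for each tested member of the 34 gene lists (red, rose; blue, fell; grey, did not pass), with a bar at the list's median, lists ordered by median and the number tested in brackets. Defence, iron and heat shock lists lie to the right, with medians of 1.17, 1.14, 0.70 and 0.40, and morning clock, light-harvesting and flavonoid lists to the left, with medians of -0.75, -0.47 and -0.45.

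Jasmonate genes fell in part. Falls made up 28.6% of the list and rises 9.52%, against 5.65% and 6.57% of all genes. Of 21, all tested, 6 fell and 2 rose (median log2 fold change -0.13, unblocked 0 rose and 2 fell; 1 rose and 6 fell without 3 h R2, 1 rose and 4 fell without 12 h R2). MYC2 fell from 133 and 175 CPM at 3 h to 79.4 and 98.1 CPM at 12 h (-0.79 ± 0.08, FDR 3.28e-09, unblocked FDR 0.141). JAZ9 (listed as TIFY7), a repressor of MYC2, fell from 149.9 and 146 CPM at 3 h to 63.0 and 60.1 CPM at 12 h (-1.26 ± 0.08, FDR 5.47e-14). JAZ2 (TIFY10B), like other JAZ genes induced by jasmonate itself, fell from 73.7 and 74.3 CPM at 3 h to 47.9 and 54.4 CPM at 12 h (-0.51 ± 0.09, FDR 0.000113, unblocked FDR 0.0583). JAZ5 fell from 16.1 and 11.7 CPM at 3 h to 7.98 and 6.67 CPM at 12 h (-0.89 ± 0.18, FDR 0.000654, unblocked FDR 0.109; lost without 12 h R2, FDR up to 0.0771). AOC1, an enzyme of jasmonate synthesis, fell from 21.6 and 15.0 CPM at 3 h to 9.06 and 6.08 CPM at 12 h (-1.29 ± 0.16, FDR 3.39e-07). The 3 h libraries were higher without overlap in all 5. The members that rose were VSP1 and LOX2. VSP1, a vegetative storage protein with a close copy in VSP2, rose from 321 and 224 CPM at 3 h to 518 and 386 CPM at 12 h (0.74 ± 0.08, FDR 3.68e-09, unblocked FDR 0.498). LOX2, a lipoxygenase of jasmonate synthesis named after its values were seen, rose from 3474 and 2078 CPM at 3 h to 3690.2 and 2761 CPM at 12 h (0.25 ± 0.07, FDR 0.0226, unblocked FDR 1; lost without 3 h R2 or 12 h R2, FDR up to 0.458).

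Of 7 indole glucosinolate genes 3 fell and 2 rose (median log2 fold change -0.29, unblocked 1 rose and 1 fell; 1 rose and 3 fell without 3 h R1, 3 h R2 or 12 h R2, by DESeq2 and thinned 1 rose and 3 fell). CYP79B3, which makes indole-3-acetaldoxime for these defence compounds and for camalexin, fell from 85.2 and 74.7 CPM at 3 h to 42.1 and 35.8 CPM at 12 h (-1.04 ± 0.09, FDR 2.31e-10). CYP79B2, with the same activity, fell from 113 and 89.2 CPM at 3 h to 70.3 and 61.2 CPM at 12 h (-0.61 ± 0.09, FDR 3.84e-06, unblocked FDR 0.383). CYP83B1, the next enzyme towards glucosinolates, fell from 374 and 330.2 CPM at 3 h to 294 and 252 CPM at 12 h (-0.37 ± 0.07, FDR 0.000303, unblocked FDR 0.513). These were the lower pair at 12 h without overlap. MYB51, an activator of the pathway, went up, from 2.3 and 5.50 CPM at 3 h to 10.6 and 13.8 CPM at 12 h (1.5 ± 0.22, FDR 4.28e-06), and its log2 fold change was 2.38 without 3 h R2. IGMT5, an O-methyltransferase that modifies indole glucosinolates, fell from 49.1 and 61.2 CPM at 3 h to 24.6 and 33.5 CPM at 12 h (-0.91 ± 0.10, FDR 1.85e-08, unblocked FDR 0.113). Of 13 aliphatic glucosinolate genes 3 fell and none rose (median log2 fold change -0.24, unblocked 0 rose and 0 fell, by DESeq2 0 rose and 1 fell, 2 rose at an unadjusted p under 0.05). None of these calls held on leaving out any 1 library. CYP79F1, an enzyme of their synthesis, stood at 184 and 163 CPM at 3 h and 201 and 190.1 CPM at 12 h (0.18 ± 0.08, FDR 0.139).

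Part of the heat shock genes rose between 3 h and 12 h. Rises made up 42.1% of that list and 38.5% of the endoplasmic reticulum chaperones, against 6.57% of all genes. Of 22 cytosolic and organelle heat shock genes 19 were tested, 8 rose and none fell (median log2 fold change 0.40, unblocked 1 rose and 0 fell; 3 rose and 0 fell without 12 h R2; 0 fell at an unadjusted p under 0.05 and 0 by DESeq2). HSP90.1, the stress-induced HSP90, rose from 8.27 and 21.5 CPM at 3 h to 30.6 and 59.4 CPM at 12 h (1.56 ± 0.14, FDR 1.84e-10, unblocked FDR 0.529). HSP70 (AT3G12580) rose from 9.64 and 9.79 CPM at 3 h to 20.5 and 20.9 CPM at 12 h (1.09 ± 0.16, FDR 4.72e-06). HSP101, a disaggregase needed for acquired heat tolerance, rose from 12.6 and 18.6 CPM at 3 h to 22.9 and 26.9 CPM at 12 h (0.62 ± 0.14, FDR 0.00163, unblocked FDR 0.307; lost without 12 h R2, FDR up to 0.0976). HSP81-2, a constitutive HSP90, rose from 351 and 324 CPM at 3 h to 444 and 438 CPM at 12 h (0.39 ± 0.08, FDR 0.00121, unblocked FDR 0.454; lost without 12 h R2, FDR up to 0.058). Apart from those lists, the HSP70 family gene AT3G09440 rose from 416 and 399 CPM at 3 h to 844 and 869 CPM at 12 h (1.07 ± 0.07, FDR 7.07e-14). The 12 h libraries were the higher pair for all 5. Of 13 chaperones of the endoplasmic reticulum 5 rose (median log2 fold change 0.23, unblocked 0 rose and 0 fell; 3 rose and 0 fell without 3 h R1 or 12 h R2; 0 fell at an unadjusted p under 0.05 and 0 by DESeq2). CNX1, a calnexin, rose from 548 and 607 CPM at 3 h to 762 and 842 CPM at 12 h (0.47 ± 0.07, FDR 5e-06, unblocked FDR 0.155). BIP2, an HSP70 of the lumen, rose from 379 and 418 CPM at 3 h to 468 and 599 CPM at 12 h (0.42 ± 0.08, FDR 0.000128, unblocked FDR 0.637).

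Of 11 cold response genes tested, 3 rose and 3 fell (median log2 fold change 0.19, unblocked 0 rose and 1 fell; 1 rose and 2 fell without 3 h R1, 1 rose and 1 fell without 12 h R2). COR15A, a chloroplast protein that protects membranes in freezing, fell from 124 and 162 CPM at 3 h to 42.9 and 49.7 CPM at 12 h (-1.63 ± 0.09, FDR 5.75e-16). KIN1, an antifreeze-like protein, fell from 8.95 and 4.75 CPM at 3 h to 3.45 and 2.2 CPM at 12 h (-1.22 ± 0.25, FDR 0.000759, unblocked FDR 0.37; lost without 12 h R2, FDR up to 0.0528). Both were lower in each 12 h library than in any 3 h library. GolS1, which makes galactinol for raffinose, fell from 20.9 and 22.4 CPM at 3 h to 4.31 and 5.57 CPM at 12 h (-2.07 ± 0.18, FDR 5.5e-11), again without overlap.

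Growth hormone lists differed in how many members passed. Rises made up 12.5% of the PIF and warm growth genes tested and 16.7% of the abscisic acid genes, against 6.57% of all genes. Of 16 PIF and warm growth genes tested 2 rose (median log2 fold change -0.06, unblocked 0 rose and 0 fell; 0 rose and 0 fell without 3 h R1, 1 rose and 0 fell without 3 h R2, 12 h R1 or 12 h R2, by DESeq2 and thinned 0 rose and 0 fell; 1 fell at an unadjusted p under 0.05). PIF3, a light-labile factor, rose from 13.8 and 13.9 CPM at 3 h to 22 and 19.3 CPM at 12 h (0.54 ± 0.15, FDR 0.0109, unblocked FDR 0.438; lost without 3 h R1 or 12 h R2, FDR up to 0.161, DESeq2 FDR 0.0528, thinned FDR 0.11). PIF4, the factor of warm growth, rose from 25.5 and 20.3 CPM at 3 h to 34.5 and 26 CPM at 12 h (0.39 ± 0.13, FDR 0.0418, unblocked FDR 0.777; lost without any 1 library, FDR up to 0.368, DESeq2 FDR 0.159, thinned FDR 0.204). Neither overlapped between the groups. Of 13 gibberellin genes tested 4 rose (30.8%, against 6.57% of all genes) and 2 fell (15.4%, against 5.65%) (median log2 fold change -0.08, unblocked 0 rose and 0 fell; 3 rose and 0 fell without 3 h R1, 2 rose and 0 fell without 3 h R2 or 12 h R2, 4 rose and 0 fell without 12 h R1, by DESeq2 3 rose and 0 fell). GASA6, a small gibberellin-regulated protein, rose from 28.7 and 20.4 CPM at 3 h to 59.7 and 37.5 CPM at 12 h (0.95 ± 0.11, FDR 5.25e-08, unblocked FDR 0.454). Its relative GASA4 rose from 307 and 181 CPM at 3 h to 432 and 238 CPM at 12 h (0.44 ± 0.08, FDR 7.49e-05, unblocked FDR 1). GAI, a DELLA repressor, rose from 69.3 and 38.4 CPM at 3 h to 83.7 and 59.9 CPM at 12 h (0.47 ± 0.11, FDR 0.00166, unblocked FDR 1; lost without 3 h R2 or 12 h R2, FDR up to 0.191). Of these, GASA6 alone did not overlap. Of 18 abscisic acid genes 3 rose (median log2 fold change 0.29, unblocked 0 rose and 0 fell; 1 rose and 0 fell without 12 h R2; 1 fell at an unadjusted p under 0.05 and 0 by DESeq2). ABI1, a phosphatase of its receptor pathway, rose from 33.3 and 49.3 CPM at 3 h to 51.5 and 67.3 CPM at 12 h (0.51 ± 0.10, FDR 0.000325, unblocked FDR 0.922). No member passed among 10 Aux/IAA repressors tested (median log2 fold change 0.14; at an unadjusted p under 0.05, 2 rose and 0 fell, and by DESeq2 0 and 0) and 9 genes of brassinosteroid synthesis and turnover (median log2 fold change 0.05; at an unadjusted p under 0.05, 0 rose and 1 fell, and by DESeq2 0 and 0).

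Some members of the cell cycle lists passed. Ribosome biogenesis genes (8.33% rose) and nitrate and sulfate genes (6.25% rose, 6.25% fell) lay near the shares of all genes, 6.57% and 5.65%. Of 17 G2/M genes 4 fell (23.5%, against 5.65% of all genes) (median log2 fold change -0.30, unblocked 0 rose and 0 fell; 0 rose and 0 fell without 3 h R1, 12 h R1 or 12 h R2, 0 rose and 1 fell without 3 h R2, by DESeq2 0 rose and 1 fell, thinned 0 rose and 2 fell; 0 rose at an unadjusted p under 0.05). CDC20.1, an activator of the anaphase-promoting complex, fell from 48.7 and 33.5 CPM at 3 h to 35.6 and 26.2 CPM at 12 h (-0.40 ± 0.11, FDR 0.01, unblocked FDR 0.974; lost without any 1 library, FDR up to 0.181). KNOLLE (listed as SYP111), the syntaxin of the cell plate, fell from 49.8 and 61.6 CPM at 3 h to 32.6 and 50.5 CPM at 12 h (-0.41 ± 0.12, FDR 0.0199, unblocked FDR 1; lost without 3 h R1, 12 h R1 or 12 h R2, FDR up to 0.195, DESeq2 FDR 0.0518). Both overlapped between the groups. Of 12 DNA replication genes 2 rose (16.7%, against 6.57% of all genes) (median log2 fold change 0.18, unblocked 0 rose and 0 fell; 1 rose and 0 fell without 3 h R1 or 12 h R2, 0 rose and 0 fell without 3 h R2, by DESeq2 and thinned 1 rose and 0 fell; 0 fell at an unadjusted p under 0.05). TSO2, a ribonucleotide reductase subunit, rose from 119 and 80.4 CPM at 3 h to 147 and 109 CPM at 12 h (0.37 ± 0.08, FDR 0.00171, unblocked FDR 1; lost without 3 h R2, FDR up to 0.109). Of 12 ribosome biogenesis genes 1 rose (median log2 fold change -0.05, unblocked 0 rose and 0 fell; 0 rose and 0 fell without any 1 library, by DESeq2 and thinned 0 rose and 0 fell; 1 fell at an unadjusted p under 0.05), and of 16 nitrate and sulfate genes 1 rose and 1 fell (median log2 fold change 0.11, unblocked 0 rose and 0 fell; 1 rose and 0 fell without any 1 library, by DESeq2 and thinned 1 rose and 0 fell).

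No member passed among 15 floral identity genes (median log2 fold change -0.11; at an unadjusted p under 0.05, 0 rose and 0 fell, and by DESeq2 0 and 0), 6 shoot meristem genes tested (median log2 fold change -0.10; at an unadjusted p under 0.05, 0 rose and 0 fell, and by DESeq2 0 and 0) and the 2 root genes tested (median log2 fold change 0.01; at an unadjusted p under 0.05, 0 rose and 0 fell, and by DESeq2 0 and 0). Of 10 tapetum genes tested 1 fell (median log2 fold change -0.15, unblocked 0 rose and 0 fell; 0 rose and 0 fell without any 1 library, by DESeq2 0 rose and 0 fell; 2 rose at an unadjusted p under 0.05). It was LAP6, an enzyme for the pollen wall, which fell from 15.6 and 16.7 CPM at 3 h to 10.4 and 11.7 CPM at 12 h (-0.54 ± 0.16, FDR 0.019, unblocked FDR 0.502; lost without any 1 library, FDR up to 0.287, DESeq2 FDR 0.117, thinned FDR 0.0529). Of 8 mature pollen genes tested 1 fell (median log2 fold change -0.27, unblocked 0 rose and 0 fell; 0 rose and 0 fell without 3 h R2, 12 h R1 or 12 h R2, by DESeq2 and thinned 0 rose and 0 fell; 0 rose at an unadjusted p under 0.05). It was VGD1, a pectin methylesterase with a close copy in VGDH1, which fell from 4.59 and 5.50 CPM at 3 h to 3.23 and 2.87 CPM at 12 h (-0.80 ± 0.26, FDR 0.0367, unblocked FDR 0.254; lost without 3 h R2, 12 h R1 or 12 h R2, FDR up to 0.645, DESeq2 FDR 0.116, thinned FDR 0.411). The summed tapetum level, in reads per M counted reads without TMM scaling, was 90.9 and 79.4 at 3 h and 76.3 and 77.9 at 12 h. That of pollen was 48.9 and 51.7 against 43.3 and 48.6. Of 9 reference genes 1 fell (median log2 fold change 0.02, unblocked 0 rose and 0 fell; 0 rose and 0 fell without 3 h R1 or 12 h R1; 1 rose at an unadjusted p under 0.05 and 0 by DESeq2). It was GAPC1, a cytosolic glycolytic enzyme, which fell from 668 and 349 CPM at 3 h to 507 and 297 CPM at 12 h (-0.32 ± 0.07, FDR 0.00283, unblocked FDR 1; lost without 3 h R1 or 12 h R1, FDR up to 0.13), with overlap. The single falls made up 10% of the tapetum, 12.5% of the mature pollen and 11.1% of the reference genes tested, against 5.65% of all genes. The median of all genes was -0.01 on the log2 scale.

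The remaining genes named for size or level have looser ties to these lists. AT2G15020, uncharacterized in RefSeq, fell from 8.27 and 13.8 CPM at 3 h to 2.59 and 2.45 CPM at 12 h (-2.26 ± 0.25, FDR 2.31e-08). AT2G27420, a cysteine protease family gene, fell from 8.49 and 14 CPM at 3 h to 2.59 and 3.12 CPM at 12 h (-2.05 ± 0.24, FDR 7.94e-08, unblocked FDR 0.0718). AT3G28270, a putative transmembrane protein, fell from 49.1 and 57.3 CPM at 3 h to 14 and 16.6 CPM at 12 h (-1.8 ± 0.13, FDR 6.72e-13). AT4G02360, another of this kind, fell from 6.66 and 12.6 CPM at 3 h to 2.80 and 3.38 CPM at 12 h (-1.73 ± 0.25, FDR 2.6e-06; lost without 3 h R2, FDR up to 0.0778), and by 1.13 on the log2 scale without 3 h R2. All 4 were higher in both 3 h libraries. Among the genes that rose with the most reads, CCL, whose transcript is known as clock-controlled and unstable, rose from 1257 and 1377 CPM at 3 h to 1793 and 1939.5 CPM at 12 h (0.50 ± 0.07, FDR 2.43e-06, unblocked FDR 0.189). TCTP, a conserved growth regulator, rose from 977 and 1295 CPM at 3 h to 1314 and 1501 CPM at 12 h (0.32 ± 0.07, FDR 0.00279, unblocked FDR 0.985; lost without 3 h R1 or 12 h R1, FDR up to 0.117). LARP6b, an RNA-binding protein, rose from 619 and 651 CPM at 3 h to 779.6 and 854 CPM at 12 h (0.36 ± 0.07, FDR 0.000256, unblocked FDR 0.336). All genes of this paragraph were free of overlap, which was a condition of naming them.

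The same step was measured in zed1-D, in 4 libraries that the WT step does not share. There 6231 genes changed, 32.3% of those tested, with 3648 rising (18.9%) and 2583 falling (13.4%), and 3782 changed without zed1-D 3 h R2. Of the 1269 genes that rose in WT, 975 (76.8%) rose in zed1-D and 11 fell. Those 975 were 26.7% of the genes that rose in zed1-D. Of the 1091 that fell in WT, 703 (64.4%) fell in zed1-D and 84 rose, and the 703 were 27.2% of the genes that fell there. GRP7 in zed1-D stood at 205 and 173 CPM at 3 h and 735 and 623 CPM at 12 h (1.85 ± 0.08 in zed1-D, FDR 1.4e-19; difference 0.12 ± 0.11, FDR 0.573). CCA1 stood at 3.25 and 4.77 CPM at 3 h and 0.550 and 0.344 CPM at 12 h (-3.32 ± 0.46 in zed1-D, FDR 3.8e-07; difference 0.91 ± 0.75, FDR 0.533). LHCB2.3 stood at 143 and 105 CPM at 3 h and 36.1 and 23.1 CPM at 12 h (-2.09 ± 0.09 in zed1-D, FDR 6.92e-19; difference 0.18 ± 0.13, FDR 0.45). For these 3 the difference between the steps did not pass the test.

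The difference between the steps, WT minus zed1-D, passed for 1489 genes (7.71%), with the WT value above in 601 (3.11%) and below in 888 (4.6%). Without the block 68 passed (0.352%). With it, 568 passed without WT 12 h R2, 629 without WT 3 h R2 and 722 without zed1-D 3 h R2. It passed for 17.7% of the genes that rose in WT, 17.2% of those that fell and 6.35% of the rest. The defence list rose in both genotypes, with all 25 members rising in zed1-D (median 0.97), and the steps differed for 6 of the 25, with WT above in 5. PR1 in zed1-D was already at 135 and 196 CPM at 3 h and 314 and 455 CPM at 12 h, so its WT rise was the larger one on the log2 scale from a lower start (1.22 ± 0.08 in zed1-D, FDR 2.69e-15; difference 2.75 ± 0.14, FDR 1.22e-16, unblocked FDR 0.0947). FMO1 stood at 13.9 and 14.7 CPM at 3 h and 94.8 and 112 CPM at 12 h (2.87 ± 0.11 in zed1-D, FDR 8.98e-21; difference 2.47 ± 0.34, FDR 2.87e-06). DLO1 (AT4G10500), a salicylic acid hydroxylase, in WT rose from 10.102 and 4.94 CPM at 3 h to 33.9 and 18.5 CPM at 12 h (1.83 ± 0.15, FDR 2.18e-11, unblocked FDR 0.249). In zed1-D it stood at 124 and 72.2 CPM at 3 h and 117 and 62.3 CPM at 12 h (-0.15 ± 0.09 in zed1-D, FDR 0.187; difference 1.98 ± 0.17, FDR 1.76e-10, unblocked FDR 0.72). PCR1, a plant cadmium resistance protein, in WT rose from 27.3 and 25.6 CPM at 3 h to 133 and 131 CPM at 12 h (2.33 ± 0.11, FDR 2.29e-18). PCR1 in zed1-D stood at 205 and 213 CPM at 3 h and 432 and 396 CPM at 12 h (0.98 ± 0.08 in zed1-D, FDR 5.63e-12; difference 1.34 ± 0.13, FDR 4.27e-09). At 12 h zed1-D remained above WT in level for each of these genes.

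Jasmonate and indole glucosinolate genes moved apart between the genotypes. Of 21 jasmonate genes 20 rose in zed1-D (median 1.14), and the steps differed for 18, all with WT below. JAZ9 in zed1-D stood at 111 and 105 CPM at 3 h and 198 and 185 CPM at 12 h (0.82 ± 0.08 in zed1-D, FDR 7.7e-11; difference -2.09 ± 0.11, FDR 6.59e-16). MYC2 stood at 99.3 and 116 CPM at 3 h and 161 and 185 CPM at 12 h (0.69 ± 0.08 in zed1-D, FDR 8.17e-09; difference -1.49 ± 0.11, FDR 6.37e-12, unblocked FDR 0.0907). CYP79B2 stood at 75.6 and 66 CPM at 3 h and 211 and 179 CPM at 12 h (1.46 ± 0.08 in zed1-D, FDR 3.89e-16; difference -2.06 ± 0.12, FDR 5.78e-15). In WT these 3 fell, and in zed1-D they rose. GolS1, which also fell in WT, rose in zed1-D, at 9.54 and 9.89 CPM at 3 h and 36.1 and 37.3 CPM at 12 h (1.91 ± 0.14 in zed1-D, FDR 3.51e-13; difference -3.98 ± 0.23, FDR 3.07e-15). PGL5, a gene of the pentose phosphate route, in WT fell from 76.9 and 48.6 CPM at 3 h to 38.2 and 25.8 CPM at 12 h (-0.96 ± 0.12, FDR 1.62e-07, unblocked FDR 0.462). PGL5 in zed1-D stood at 76.5 and 49.5 CPM at 3 h and 340.1 and 214 CPM at 12 h (2.13 ± 0.10 in zed1-D, FDR 1.09e-18; difference -3.09 ± 0.15, FDR 1.22e-16). FAMT, a methyltransferase of farnesoic acid, in WT fell from 16.1 and 15.8 CPM at 3 h to 10.6 and 8.78 CPM at 12 h (-0.77 ± 0.16, FDR 0.000544, unblocked FDR 0.0513; lost without 3 h R2 or 12 h R2, FDR up to 0.135). FAMT in zed1-D stood at 23.7 and 19.96 CPM at 3 h and 137 and 141 CPM at 12 h (2.70 ± 0.10 in zed1-D, FDR 6.16e-21; difference -3.47 ± 0.19, FDR 6.59e-16). IAR3, which frees auxin and jasmonate from amino acid conjugates, in WT fell from 62.7 and 71.8 CPM at 3 h to 43.3 and 46.4 CPM at 12 h (-0.59 ± 0.10, FDR 2.07e-05, unblocked FDR 0.154). IAR3 in zed1-D stood at 67.6 and 77.4 CPM at 3 h and 193 and 232 CPM at 12 h (1.55 ± 0.08 in zed1-D, FDR 7.2e-17; difference -2.14 ± 0.13, FDR 5.96e-15).

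Of the 16952 genes that did not pass in WT, the steps differed for 1077, with 614 rising and 414 falling in zed1-D. TAT3, CYP79F1 and IMD1 were among them. TAT3, a jasmonate-induced tyrosine aminotransferase, in WT stood at 64.1 and 41.9 CPM at 3 h and 62.3 and 50.8 CPM at 12 h (0.14 ± 0.10, FDR 0.481). TAT3 in zed1-D stood at 286 and 209 CPM at 3 h and 1484 and 1125 CPM at 12 h (2.4 ± 0.08 in zed1-D, FDR 7.86e-22; difference -2.27 ± 0.13, FDR 5.76e-15). CYP79F1 stood in zed1-D at 138 and 112 CPM at 3 h and 59.4 and 55.5 CPM at 12 h (-1.1 ± 0.08 in zed1-D, FDR 4.03e-13; difference 1.28 ± 0.11, FDR 1.62e-10). IMD1, a gene of aliphatic glucosinolate and leucine synthesis, in WT stood at 131 and 129.6 CPM at 3 h and 119 and 134 CPM at 12 h (-0.03 ± 0.09, FDR 0.875). Its zed1-D libraries stood at 106 and 113 CPM at 3 h and 45.5 and 54.7 CPM at 12 h (-1.11 ± 0.09 in zed1-D, FDR 5.83e-12; difference 1.08 ± 0.13, FDR 1.42e-07). Of 13 aliphatic glucosinolate genes 11 fell in zed1-D, and the steps differed for 9, all with WT above. Of 16 iron genes 4 rose in zed1-D against 12 in WT. Their steps differed for 10, also mostly with WT above, in 9. BHLH100 in zed1-D stood at 23.9 and 29.0 CPM at 3 h and 25.9 and 37.7 CPM at 12 h (0.29 ± 0.13 in zed1-D, FDR 0.0824; difference 1.40 ± 0.20, FDR 9.15e-06, unblocked FDR 0.717). Light-harvesting and morning clock genes fell alike in count, 13 and 9 in zed1-D against 13 and 7 in WT, and the steps differed for none of either list.

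**Figure D5:**
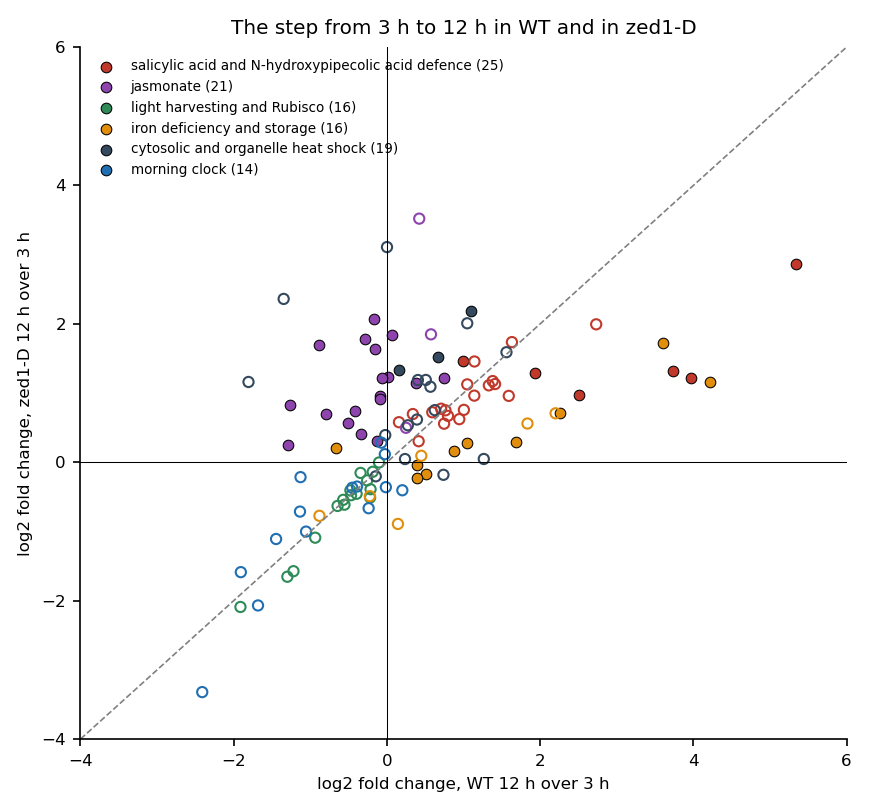
Log2 fold change of 12 h over 3 h in zed1-D against that in WT for members of 6 gene lists; filled points are genes whose steps differ between the genotypes at an adjusted p under 0.05, and the dashed line marks equal values. Light-harvesting and morning clock genes lie near the line, 18 jasmonate genes lie above it, and 9 iron genes lie below it.

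WT at 48 h and WT at 0 h share no library with the step and are labelled 48 h apart, which holds the time of day if sampling kept to the labelled hours. Between them 5675 genes changed, 29.4% of those tested, with 2732 higher at 48 h (14.1%) and 2943 lower (15.2%), and 3077 changed without 0 h R2 and 3457 without 48 h R2. Of the genes that rose from 3 h to 12 h, 387 (30.5%) were also higher at 48 h, 253 were lower and 629 did neither. Of the genes that fell, 458 (42.0%) were also lower at 48 h, 199 were higher and 434 did neither. The defence list parted from the step, with 17 of 25 lower at 48 h than at 0 h and none higher (median -0.47). PR1 stood at 58.9 and 91.8 CPM at 0 h and 36.4 and 51.2 CPM at 48 h (-0.79 ± 0.09, FDR 2.32e-08). FMO1 stood at 1.12 and 1.24 CPM at 0 h and 0.599 and 0.595 CPM at 48 h (-0.99 ± 0.49, FDR 0.155). PR1 was thus below its 0 h level at 3 h, above it at 12 h and below it at 48 h in both replicates.

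Of 16 iron genes 12 were higher at 48 h and 3 lower, with a median of 3.10. All 12 that rose over the step were among those higher at 48 h, and both that fell were among those lower. BHLH100 stood at 0.373 and 0.0951 CPM at 0 h and 85.7 and 125 CPM at 48 h (9.08 ± 0.26, FDR 6.18e-25), so its levels followed the order of the 4 times in both replicates. Light-harvesting genes were also lower in 13 of 16, with LHCB2.3 at 139.7 and 99.2 CPM at 0 h and 33.0 and 23.0 CPM at 48 h (-2.1 ± 0.10, FDR 9.8e-19). Morning clock genes, which fell over the step, were higher at 48 h in 9 of 14 (median 1.1), among them LHY at 0.186 and 0.856 CPM at 0 h and 10.4 and 8.33 CPM at 48 h (3.81 ± 0.35, FDR 9.25e-11). GRP7 stood at 1550.3 and 1304 CPM at 0 h and 1151 and 1016 CPM at 48 h (-0.39 ± 0.07, FDR 8.35e-05), higher at both ends than at 3 h and 12 h. COR15A stood at 466 and 578 CPM at 0 h and 139 and 156 CPM at 48 h (-1.82 ± 0.08, FDR 1.2e-19), highest at 0 h and lowest at 12 h. MYC2 stood at 58.2 and 75.6 CPM at 0 h and 115 and 135 CPM at 48 h (0.90 ± 0.08, FDR 1.97e-10), and 16 of 21 jasmonate genes were higher at 48 h and none lower.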

How the data were processed

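The authors deposited, for each library, a table of uniquely mapped read counts and RPKM per gene. The submitters' processing notes name the build TAIR10. No source used here names an aligner, a counter or the strand setting. The deposited RPKM served only to check the counts, which recomputed it to a relative difference of at most 5.93e-08. A gene missing from a table was set to 0 reads.

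Counts of 16 libraries in 8 groups were fitted with edgeR 4.0.16 in R 4.3.3 (TMM scaling, filterByExpr, quasi-likelihood test, Benjamini-Hochberg adjustment over 19312 genes) with the replicate number as a block. Same-numbered libraries deviated together in all 28 pairs of groups, with correlations of 0.527 to 0.708, so the numbers of the titles pair them. Replicates differed beyond sampling noise, with a chi-square per degree of freedom of 27.9 at WT 3 h and 22.1 at WT 12 h. DESeq2 1.42.0 was an alternative. Counts for WT 12 h against WT 3 h over 19312 genes were also simulated from the fit of the blocked model. On them the blocked model recovered 53.7%, 97% and 100% of genes changed by a log2 fold of 0.5, 1 and 2, with 6 false calls of 173. The model without the block recovered 0%, 28.4% and 74.2%, with 0 false calls of 68. Since the simulated spread came from the blocked model, the simulation cannot test the choice of the block. Leaving out 1 library leaves an arm with a single library, assumed to vary like the other groups.

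Members and the 34 gene lists were chosen with earlier results of these data known. Named genes are, among those passing without overlap and with mean log2 CPM from 2 up, the 10 largest changes and the 5 with the most reads in each direction. The passing members of the clock lists and TOC1, a member that did not pass, were added. So were up to 6 members of each other list by p, 8 genes per direction for the difference between steps, ZED1 and ZAR1. Gene names and sequences came from RefSeq, which matched 24237 of 25444 identifiers, and the counts carry no coordinates.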

Additional observations from a re-analysis of the deposited data

Results flagged for a closer look

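The step from 3 h to 12 h differed between WT and zed1-D for 1489 genes by the test of the difference itself (edgeR quasi-likelihood test with the replicate block, adjusted p under 0.05). Among the genes named above 47 passed, of which 18 passed without the block and 44 by DESeq2. Values below are WT minus zed1-D differences of the log2 fold change, and a positive value means that the WT value lay above. No cause of a difference was tested.

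Genes that fell in WT and rose in zed1-D were 14. The largest differences were those of GolS1 (-3.98), AT4G02360 (-3.82), FAMT (-3.47) and PGL5 (-3.09). Jasmonate genes followed with JAZ5 at -2.58, IAR3 at -2.14, TIFY7 at -2.09, MYC2 at -1.49 and TIFY10B at -1.07. Indole glucosinolate genes were IGMT5 at -2.55, CYP79B2 at -2.06, CYP79B3 at -1.98 and CYP83B1 at -1.01. The pollen gene VGD1 was at -1.70, with few reads.

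Among genes that rose in both genotypes, the WT value lay above for AT3G13610 (3.11), PR1 (2.75), AT3G22910 (2.64), FMO1 (2.47), AIG1 (2.46), ALD1 (2.41), PUB54 (1.66), UGT76B1 (1.53), PCR1 (1.34), ABCG40 (1.11), AT2G18690 (1.08) and PBS3 (0.641). It lay below for CYP71A13 (-1.79), HSP70 (-1.10), WRKY33 (-0.683), VSP1 (-0.474) and LARP6b (-0.468), which also rose in both. AT4G10500 rose in WT and did not pass in zed1-D, with a difference of 1.98.

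Iron genes had the WT value above, with bHLH38 at 1.88, AT1G47400 at 1.55, BHLH100 at 1.40, FRO3 at 0.774 and AT2G30766 at 0.713, and the ferritin FER1 had it below at -0.867. The starch gene SEX1 (0.619), the gibberellin gene GASA6 (0.614) and the clock gene GI (0.516) rose in WT and did not pass in zed1-D. SPA3 (0.555) and PORB (0.368) fell in both genotypes, less in WT. AOC1 fell in WT and did not pass in zed1-D (-1.54). CYP79F1 (1.28), IMD1 (1.08) and TAT3 (-2.27) did not pass in WT.

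On leaving out 1 library the difference no longer passed for 11 of these genes. For ALD1 and VGD1 this was WT 3 h R2, with an adjusted p of 0.0736 and 0.0866, and for VSP1 zed1-D 3 h R1, at 0.0557. FER1 was lost without either genotype's 3 h R2, with an adjusted p up to 0.137. SPA3 was lost without WT 12 h R2, zed1-D 3 h R2 or zed1-D 12 h R1, up to 0.102, and PORB without WT 12 h R2, zed1-D 3 h R2 or zed1-D 12 h R2, up to 0.11. AT1G47400 was lost without WT 3 h R2, WT 12 h R2 or zed1-D 12 h R2, up to 0.231, and bHLH38 without WT 3 h R2, WT 12 h R2 or zed1-D 3 h R2, up to 0.635. PBS3 (up to 0.241) was lost without 5 of the 8 libraries singly, GI (0.285) without 6 and GASA6 (0.114) without any of the 8. By DESeq2 the difference did not pass for GI, GASA6 and bHLH38.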

How the results depend on the processing

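Without the block, 255 genes passed for WT 12 h against WT 3 h instead of 2360, with 80.78% of them higher instead of 53.77%. The other comparisons gave 68 against 1489 for the difference between the steps (14.71% with WT above instead of 40.36%), 1274 against 6231 for the zed1-D step (77.47% instead of 58.55%) and 574 against 5675 for WT 48 h against WT 0 h (59.76% instead of 48.14%). Of the 127 named genes that passed, 81 did not pass without the block.

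DESeq2 with the block called 1565 genes for the WT step and 816 for the difference. A log2 fold minimum of 1 left 496, 434, 1266 and 868 genes in the order of comparisons above. For the difference, libraries thinned to the shallowest gave 969 and the compared groups alone 2308. There the share with WT above was 49.23% and 53.34%, and it was 53.78% with no expression filter. RLE scaling left every count within 1.5 times, moved no share by over 10 percentage points and changed no named call. Of the 127, DESeq2 did not call 12, thinned libraries 11 and no expression filter 1, and the compared groups alone called all of them. On leaving out 1 library the counts ran from 935 to 1745 for the WT step, 568 to 1246 for the difference, 3782 to 4917 for the zed1-D step and 3077 to 4443 for WT 48 h against WT 0 h, lowest without replicate 2 of a group.

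Direction changed for IMD1 and ZED1, which did not pass in any of these. On leaving out 1 library the log2 fold change ran from -0.0952 to 0.0321 for IMD1, above 0 without 3 h R1 (0.0147) and 12 h R1, and from -0.146 to 0.299 for ZED1, above 0 without 3 h R2 (0.289) and 12 h R2. By DESeq2 that of ZED1 was 0.0166. On the gene strand alone the evening element was in 3.8%, 1.74% and 1.64% of windows of genes that rose, fell and all, and the CCA1 binding site in 4.04%, 4.44% and 4.71%. The cause of these shifts was not tested. Depth limits genes with few reads, and the shallowest library, WT 3 h R1, held 4.74 M counted reads.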
